A study of Homo sapiens with 15 samples.

Results

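Gene expression after stable silencing of CtBP2 was measured in MDA-MB231 cells on 5 of the 15 two-colour arrays of the study, those whose treatment label is shCtBP2 (replicates 1 to 5). MDA-MB231 is an established triple-negative breast cancer cell line with a mesenchymal form. The study compared this knockdown with 2 compounds made to block CtBP proteins, HIPP and P4, which make up the other 10 arrays (5 each, 24 h of treatment). Each array carried cRNA from the silenced or treated cells in the Cy5 channel and cRNA from control cells in the Cy3 channel, and no array had the dyes exchanged, so a dye effect of a gene cannot be told apart from the treatment in a ratio.

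The shCtBP2 cells had been transfected with a short hairpin RNA plasmid directed at CTBP2 and selected with puromycin, and no independently derived lines are described. The labels describe the control RNA of all 15 arrays as coming from untreated MDA-MB-231 cells, whereas the study's methods set shCtBP2 cells against cells that received a scrambled hairpin. Which of these controls was hybridized is not settled here, and with untreated control cells an effect of transfection and selection cannot be told apart from that of the hairpin. The labels call the 5 arrays biological replicates. Nothing says whether they came from separate cultures. The limma p-values measure only the spread between arrays of a treatment, estimated over all 15 arrays together.

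CtBP proteins are transcriptional corepressors that bind NADH and that DNA-binding factors carry to promoters and enhancers. Partners such as ZEB1 and the Krüppel-like factors KLF3 and KLF8 recruit them, and the histone deacetylases, demethylases and methyltransferases in the complex keep target genes silent. In breast epithelium the family is best known for holding down E-cadherin and other epithelial genes and for linking the redox state of the cell to gene repression.

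Each array held 43376 gene spots. The share of spots that Feature Extraction marked as well above background ran from 65.2 to 77.5% for the treated RNA of the 5 arrays and from 64.9 to 73.1% for the control RNA. A gene is called bright below when all of its probes were well above background in both channels on all 5 arrays, and dim otherwise. Over the bright genes the median SD of a log2 ratio across the arrays was 0.175, and over the other genes 0.43. All 15 markers fixed for mesenchymal-like triple-negative breast lines, among them VIM, CD44, AXL and CAV1, were above background in both channels on all 5 arrays. Of the luminal epithelial markers, PGR and CDH1 were not above background in either channel on any array, and ESR1 was on 2 arrays, while FOXA1, EPCAM, KRT19, TFF1 and TFF3 were above background on all 5. Of 20 leukocyte markers 6 were above background in the control channel on all 5 arrays, CD14, CD68, CD79A, CSF1R, LAPTM5 and CORO1A, and of 15 fibroblast markers 5, PDGFRB, THY1, ACTA2, FBLN1 and DPT. In 7 of the leukocyte genes, among them PTPRC, CD3D, MS4A1, SPI1 and LYZ, and 7 of the fibroblast genes, among them COL1A2, COL3A1, LUM and FAP, no array was above background in either channel.

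CTBP2 itself is read by 2 probes on chromosome 10 of genome build hg17. One probe, against transcript NM_001329, is the sequence below and lies at chr10:126671814-126671873, within the transcript the hairpin was designed against.
CTBP2 probe: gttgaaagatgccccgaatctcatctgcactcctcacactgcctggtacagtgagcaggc
Its log2 ratios (shCtBP2 over control) on replicates 1 to 5 were −0.22, −0.25, −0.58, −0.56 and −0.35. The second probe, against NM_022802, gave −0.51, −0.45, −0.59, −0.32 and −0.24. All 10 values lay below 0, and the order of the arrays differed between the probes. Averaged over both, CTBP2 had a log2 ratio of −0.41 ± 0.11 (SD, n = 5 arrays, limma adjusted p = 0.0648), so the targeted gene was lower on every array without passing either threshold. Relative to scrambled-hairpin cells, the study reported a significant and larger fall of CtBP2 mRNA by PCR, and less CtBP2 protein. When each probe was tested alone, the NM_001329 probe had a limma adjusted p of 0.0209 and the NM_022802 probe one of 0.157, both below the fold change of 1.5. CTBP1, the paralog with overlapping corepressor functions, had log2 ratios of 0.30, 0.17, 0.49, 0.31 and 0.19, a mean of 0.29 ± 0.13 (SD, n = 5, limma adjusted p = 0.221). The ranges of the paralogs did not overlap.

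**Figure D1:**
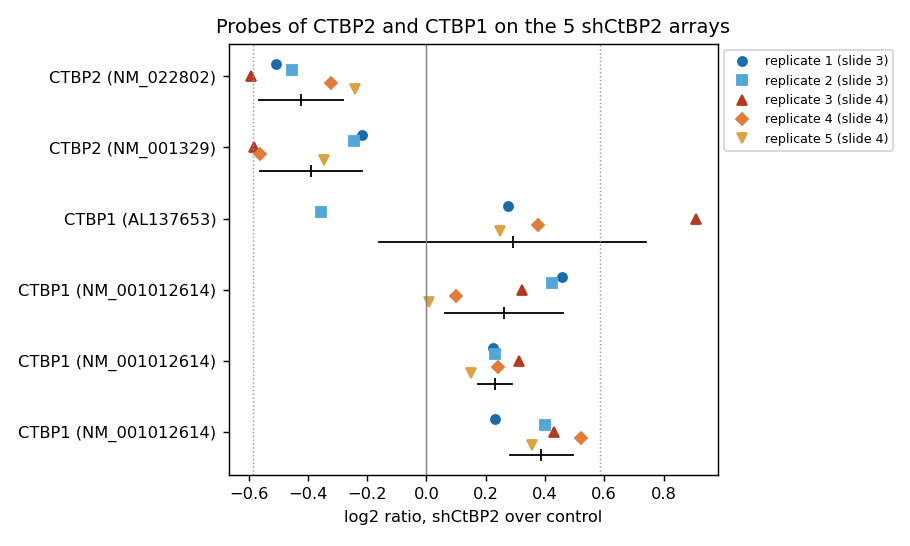
Log2 ratio of shCtBP2 over control (x axis) for each probe of CTBP2 and CTBP1 (rows), with 1 symbol per array, the mean as a tick and the SD as a bar; dotted lines mark a fold change of 1.5. Both CTBP2 probes lay below 0 on all 5 arrays, and 3 of the 4 CTBP1 probes lay above 0 on all 5.

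A gene was called up-regulated or down-regulated when its log2 ratio passed an adjusted p of 0.05 (limma, Benjamini-Hochberg over all genes tested) and a fold change of 1.5. Of 27574 genes tested, 1796 (6.51%) were called, 918 up-regulated (3.33%) and 878 down-regulated (3.18%). On mean signals with no background correction or dye normalization the split was 86 to 187, and 31.5% of the calls were up-regulated in place of 51.1%. Among the 13925 bright genes 890 were called (6.39%), 473 up-regulated (3.4%) and 417 down-regulated (2.99%), and among the 13649 other genes 906 (6.64%). Genes with a current symbol, from which all names and lists below are drawn, were called in 6.98% of 14832 tested, and array genes without one in 5.96% of 12742. Of the 890 bright genes called, 883 went 1 way on all 5 arrays. Large changes were rare among them, with 1 bright gene up and 8 bright genes down by 4-fold or more, and 100 up and 75 down by 2-fold or more.

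The bright gene that rose most was CDK20, a cyclin-dependent kinase, listed on the array as CCRK (chr9:87811113-87811172). Its log2 ratios were 2.20, 2.43, 2.15, 2.29 and 2.19, a mean of 2.25 ± 0.11 (SD, n = 5, limma adjusted p = 4.8e-09). SYT13, a synaptotagmin of vesicle traffic, gave 2.01, 2.31, 1.36, 2.11 and 2.09 (1.98 ± 0.36, limma adjusted p = 2.01e-05), with replicate 3 lowest. FES, a non-receptor tyrosine kinase best known from myeloid cells, gave 1.92, 1.70, 1.76, 1.76 and 2.28 (1.88 ± 0.23, limma adjusted p = 6.11e-05). SPOCK1, the secreted proteoglycan testican-1, gave 2.06, 1.73, 1.76, 2.02 and 1.48 (1.81 ± 0.23, limma adjusted p = 2.56e-06). On all 5 arrays each of these 4 genes was more than 2-fold above the control.

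KLHDC9, a kelch-repeat protein, had log2 ratios of 1.74, 2.04, 1.41, 1.37 and 1.99, with a mean of 1.71. The X-linked cancer-testis antigen XAGE2 gave 1.89, 2.00, 1.33, 1.39 and 1.91 (mean 1.70), and its probe reads near-identical gene copies that it may not tell apart. KCTD4, a BTB-domain protein, gave 1.88, 1.42, 1.48, 2.03 and 1.55 (mean 1.67). In none of these 3 genes did an array fall below 1.33. RAB7B, a small GTPase of late endosomes, stood at 1.06 on replicate 1 and at 1.68 to 1.79 on the others (mean 1.60). ARMCX2 (1.52), LINGO2 (1.42), GSTO2 (1.42) and SLFN5 (1.42) completed the 12 bright genes with the highest ratios, with single arrays between 0.95 and 2.04. GSTO2 is an omega-class glutathione transferase that reduces dehydroascorbate, SLFN5 is a schlafen protein induced by type I interferon, and LINGO2 is a leucine-rich repeat protein of neuronal membranes. The limma adjusted p-values of these 8 genes ran from 8.06e-07 to 0.0011.

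INHBB, the activin beta B chain (chr2:120825010-120825069), was the bright gene that fell most. Its log2 ratios were −4.0, −4.23, −4.35, −4.19 and −3.30, a mean of −4.01 ± 0.42 (SD, n = 5, limma adjusted p = 2.84e-08), and every array showed a fall of more than 8-fold. TFF3, a trefoil factor, one of the small secreted peptides that protect mucous epithelia, is read by 3 probes between 42605215 and 42608659 on chromosome 21. It gave −3.01, −2.88, −3.36, −3.57 and −3.62 (−3.29 ± 0.33, limma adjusted p = 6.05e-09), and its 3 probes ranged from −2.93 to −3.58. TFF1, another trefoil gene of the same chromosome and a textbook oestrogen-responsive gene, gave −1.34, −1.11, −1.73, −2.29 and −2.21 (−1.74 ± 0.52, limma adjusted p = 0.000187). In both trefoil genes the 3 arrays of slide 4 (replicates 3 to 5) lay below the 2 arrays of slide 3 (replicates 1 and 2). TFF2, the third trefoil factor, was called down-regulated as well, at −0.67. With 1 array left out the calls were lost for TFF2 without replicate 3, 4 or 5 (−0.62 to −0.51).

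DIPK1B, a kinase-like protein of the endoplasmic reticulum, fell with ratios of −2.72, −2.58, −3.45, −3.54 and −3.96 (mean −3.25). DMKN, the secreted epidermal protein dermokine, gave −2.0, −2.78, −3.44, −3.21 and −2.52 (mean −2.79). BOLA1, a small mitochondrial protein, gave −1.75 and −1.69 on slide 3 and −3.05, −4.06 and −3.17 on slide 4 (mean −2.74). BOLA1 had the largest spread of the 24 bright genes named, an SD of 1.01, and DIPK1B parted by slide in the same way as the trefoil genes. Structural and adhesion genes followed. FLNC, the actin cross-linker filamin C, gave −2.07, −2.34, −2.03, −2.40 and −2.04 (mean −2.18), and LAMA4, the laminin alpha 4 chain of basement membranes, −2.08, −1.93, −1.49, −1.55 and −2.39 (mean −1.89). FLNC was nearly equal on all arrays, and LAMA4 was lowest on replicate 5. Receptors and ligands made up the rest of the 12, with NEO1, the netrin receptor neogenin, at −2.08 ± 0.38, LPAR1, a lysophosphatidic acid receptor, at −1.78 ± 0.12, and TGFA, a ligand of the EGF receptor, at −1.76 ± 0.18. MEGF6, a protein of repeated EGF-like domains, had a mean of −1.80 from probes that disagreed in size, −0.65 for one and −2.96 for the other. The 12 genes had limma adjusted p-values from 6.05e-09 to 0.000409.

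**Figure D2:**
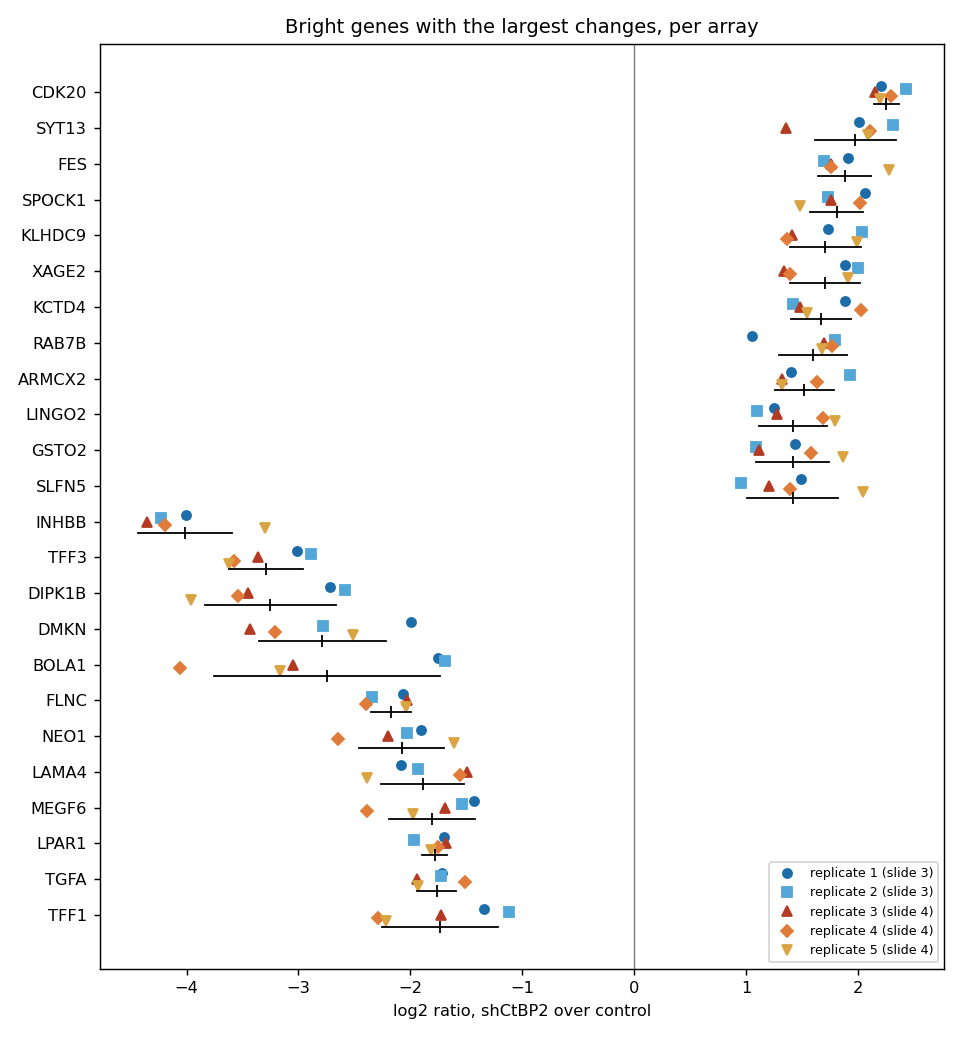
Log2 ratio of shCtBP2 over control (x axis) for the 12 bright genes with the highest and the 12 with the lowest means (rows), with 1 symbol per array, the mean as a tick and the SD as a bar. No array of any of the 24 genes lay on the other side of 0, and BOLA1 had the widest spread (SD 1.01).

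All 24 bright genes were also called by the per-gene test between the channels that the study's methods name, here with p-values adjusted over all genes tested, whereas the methods adjust after removing genes under the fold change. With normexp background correction and loess normalization 17 remained called, and FES, SPOCK1, KLHDC9, KCTD4, RAB7B, GSTO2 and SLFN5 did not. The sizes shrank in all 24, to 0.45 to 1.27 for the 12 highest and −2.96 to −0.72 for the 12 lowest. FES went from 1.88 to 0.55, SPOCK1 from 1.81 to 0.52, KLHDC9 from 1.71 to 0.45, KCTD4 from 1.67 to 0.48 and RAB7B from 1.60 to 0.48, while INHBB stood at −2.96 and CDK20 at 1.27. With slide as a fixed term in the fit 22 were called, and LINGO2 (1.01) and LPAR1 (−1.41) were not. From the 3 arrays of slide 4 alone all 24 were called, and from the 2 of slide 3 alone 20 were, without RAB7B (1.42), LINGO2 (1.17), SLFN5 (1.22) and TFF1 (−1.23).

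Among genes whose probes were not all bright, the 4 highest ratios belonged to KCNJ15, IL13RA2, KLF8 and TTC29. KLF8, the Krüppel-like factor that recruits CtBP through a PVDLS-type motif, had log2 ratios of 1.90, 2.77, 3.50, 4.04 and 4.61 (3.36 ± 1.06, limma adjusted p = 2.86e-06). In the shCtBP2 channel KLF8 passed the background limit on 5 arrays, and in the control channel on 1, and its mean was 0.90 with normexp and loess. The arrays of slide 4 again lay apart from those of slide 3. KCNJ15, an inwardly rectifying potassium channel, gave 2.63 to 5.15 and IL13RA2, the decoy receptor for interleukin 13, gave 2.52 to 4.94. For both, the control signal was not well above background on any array. Fold changes were also taken from normexp-corrected signals, with dim signals under the lowest signal well above background raised to it. KCNJ15 was 1.57-fold higher with 0 arrays raised. With 1 array raised each, IL13RA2 was 1.54-fold higher and TTC29, a ciliary tetratricopeptide protein, 1.38-fold higher. These values, and those of other dim genes given this way below, include the offset that normexp adds and are not limits set by detection. Of the 4 lowest, NOSTRIN, an adaptor that regulates endothelial nitric oxide synthase, had ratios of −4.23 to −6.88 with a treated signal above background on 1 of 5 arrays (mean −2.01 with normexp and loess), and FMOD, the matrix proteoglycan fibromodulin, −4.18 to −5.69. FMOD was dim in the treated channel on all 5 arrays and 2.2-fold lower on normexp signals with 1 array raised. TSPAN8, a tetraspanin (−3.16 ± 0.28), and HOPX, a homeodomain-only protein without DNA binding (−2.78 ± 0.95), followed. The treated signal of TSPAN8 was above background on 3 arrays and that of HOPX on 2, and with normexp and loess their means were −0.98 and −0.56. The HOPX probes differed, at −4.15 and −1.41.

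The motifs that bring CtBP to DNA were then looked for in the 250 bases before the start of each gene, from RefSeq promoters of GRCh38.p14, where 19 of the 24 bright genes have an entry. The ZEB-type E-box CAGGTG, on either strand (CACCTG), was in 2 of the 9 promoters of the highest genes, KLHDC9 and GSTO2, and in 1 of the 10 of the lowest, DMKN. These 3 promoters are shown because they are the ones among these 19 that hold it, with the E-boxes in capitals, at chr1:161098111-161098360 (plus strand), chr10:104268934-104269183 (plus strand) and chr19:35510471-35510720 (minus strand).
KLHDC9 promoter: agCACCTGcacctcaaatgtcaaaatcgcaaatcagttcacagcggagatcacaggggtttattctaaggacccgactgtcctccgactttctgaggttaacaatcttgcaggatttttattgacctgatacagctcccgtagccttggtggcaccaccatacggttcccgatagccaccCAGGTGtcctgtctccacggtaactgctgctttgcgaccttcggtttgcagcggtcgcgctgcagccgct
GSTO2 promoter: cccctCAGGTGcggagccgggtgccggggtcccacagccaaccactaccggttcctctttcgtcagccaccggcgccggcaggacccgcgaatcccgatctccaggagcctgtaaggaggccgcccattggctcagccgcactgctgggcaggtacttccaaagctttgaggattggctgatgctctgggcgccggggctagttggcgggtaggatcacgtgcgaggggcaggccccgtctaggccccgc
DMKN promoter: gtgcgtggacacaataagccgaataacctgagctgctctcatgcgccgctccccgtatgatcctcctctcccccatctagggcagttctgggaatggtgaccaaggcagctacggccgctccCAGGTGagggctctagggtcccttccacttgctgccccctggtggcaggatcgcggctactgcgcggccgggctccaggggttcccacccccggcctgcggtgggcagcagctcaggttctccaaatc
Over larger groups the E-box was about as frequent in genes that rose as in genes that fell. It was in 32 of 207 promoters of bright up-regulated genes (15.5%), 43 of 257 of bright down-regulated genes (16.7%), 1025 of 6740 of all bright genes tested (15.2%) and 4781 of all 27305 promoters (17.5%). The CACCC box that Krüppel-like factors bind, on either strand (GGGTG), was in 63.8%, 63.4%, 58.6% and 53.7% of the same groups. A match is a stretch of letters and not a measured binding site, and no match says nothing of a factor.

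The activin, TGF-beta and BMP pathway was followed by role, since INHBB led the down-regulated genes. In this pathway dimeric ligands bring type I and type II receptors together, and the receptors activate SMAD proteins. Of 72 members tested, 10 were down-regulated and 2 up-regulated, beside 3.67% and 3.31% of the 14832 tested genes with a current symbol, and the median log2 ratio was −0.09 against 0.01. Among the ligands INHBB fell together with TGFB2 (−0.60, −1.62, −0.63, −1.15 and −1.08, mean −1.02) and BMP4 (−0.62). INHBA, the other activin chain, had 0.78, 0.13, 0.29, 0.28 and 0.86 (0.47 ± 0.33, limma adjusted p = 0.047), a positive ratio on every array that stayed under the fold change of 1.5. One of 13 receptors was called, the activin receptor ACVR2A, at −0.65. The inhibitory SMADs SMAD6 (−1.02, above background in the treated channel on 2 arrays) and SMAD7 (−0.60), the ID2 repressor (−0.79), and TGFBI, a matrix protein named for its induction by TGF-beta (−0.59), were down-regulated too. Extracellular binding proteins were called in both directions, the bright ones only downward. FST, the activin antagonist follistatin, gave −1.48, −1.68, −1.20, −0.90 and −0.81 (mean −1.21), and LTBP1, which holds latent TGF-beta in the matrix, −1.66, −1.37, −0.86, −0.59 and −0.98 (mean −1.09). The 2 calls up were the dim genes DAND5, a BMP and nodal antagonist (1.24, above background in the control channel on 2 arrays), and FSTL5, a follistatin-like protein that was not above background in either channel on any array, so that its ratio has no measured size. Calls that ended with 1 array less were those of ACVR2A without any 1 array (−0.71 to −0.57), BMP4 without replicate 2, 3, 4 or 5 (−0.65 to −0.52) and DAND5 without replicate 1 (0.92), and that of FSTL5 ended without any 1 array. Leaving out 1 array ended the calls of SMAD6 without replicate 3 or 4 (−0.79 to −0.71), SMAD7 without replicate 4 or 5 (−0.52 to −0.49) and TGFBI without replicate 2 or 4 (−0.58 to −0.51).

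In the Notch pathway, in which ligands on one cell open a receptor on the next, 8 of 33 members tested were down-regulated and 0 up-regulated (median −0.15). At an unadjusted limma p under 0.05 it was 11 and 3, and the methods' test called 3 and 0. The bright ones were NOTCH1 (−0.61, −0.75, −0.64, −0.64 and −0.78, mean −0.68), its ligand JAG1 (−0.92, −0.62, −0.40, −0.53 and −0.69, mean −0.63), and the fringe glycosyltransferases MFNG (−0.74, −0.77, −1.0, −1.11 and −1.13, mean −0.95) and LFNG (−0.87, −0.60, −0.59, −0.60 and −0.84, mean −0.70). All 20 of these values lay below 0. The other 3 Notch receptors had positive means and were not called. NOTCH2 gave 0.40, 0.69, 0.11, 0.39 and 0.20 (limma adjusted p = 0.0633), above 0 on every array. So did NOTCH4, with 0.58, 0.23, 0.71, 0.37 and 1.03 (mean 0.58, limma adjusted p = 0.00965), which stayed under the fold change of 1.5. NOTCH3 ranged from −1.14 to 1.81, with a signal above background on 1 treated array and 0 control arrays. The median of the 4 receptors was 0.44. Dim and down-regulated were the ligand DLL1 (−1.01), the coactivator MAML2 (−1.09) and the repressors HES5 (−0.89) and HEY2 (probes at −0.23 and −1.37). HES5 and HEY2 were each above background on 2 treated arrays. DLL1 and MAML2 were not well above background in the treated channel on any array. On normexp signals, with 0 arrays raised, they were 1.05-fold and 1.03-fold lower. HES1, the most widely used readout of the pathway, was between −0.53 and 0.16 and was not called (limma adjusted p = 0.384). With 1 array left out the calls were lost for HEY2 without replicate 1, 2, 4 or 5 (−0.83 to −0.65), JAG1 without replicate 1 (−0.56) and LFNG without replicate 1, 2, 4 or 5 (−0.73 to −0.66).

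Of 27 tested genes that the YAP and TEAD factors are known to drive, 5 were down-regulated and 1 up-regulated (median −0.26). ANKRD1, a cardiac and muscle ankyrin-repeat protein, gave −1.05, −1.15, −1.15, −1.95 and −1.47 (mean −1.35), and TEAD4, one of the DNA-binding partners, −0.58, −0.52, −0.57, −0.78 and −0.67 (mean −0.62). TGFB2, the endothelin precursor EDN1 (−0.97) and tissue factor F3 (−0.62) were the other down-regulated genes, and the keratin KRT34 (0.79) the up-regulated one. The genes used most often as readouts, CCN1 (CYR61) and CCN2 (CTGF), had ratios of −0.32 to 0.63 and −1.04 to −0.13 and were not called (limma adjusted p = 0.54 and 0.148). The threshold was no longer passed by EDN1 without any 1 array (−1.10 to −0.86), F3 without replicate 2 or 4 (−0.60 to −0.47), KRT34 without replicate 2, 4 or 5 (0.51 to 0.88) and TEAD4 without replicate 4 (−0.58).

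Secreted matrix glycoproteins and proteoglycans were divided, with 7 of 76 tested up-regulated and 7 down-regulated. Besides SPOCK1, the bright genes that rose were the laminin chains LAMB3 (0.41, 0.80, 0.60, 0.91 and 0.77, mean 0.70) and LAMB1 (0.61), the matricellular protein SPARC (0.80, 0.69, 0.55, 0.49 and 0.63, mean 0.63) and MATN4 (0.62). Besides LAMA4, those that fell were EFEMP1, fibulin-3 (−0.52, −1.01, −1.25, −1.87 and −1.28, mean −1.19), the cell-surface proteoglycan SDC2 (−0.86) and TGFBI. Laminin chains thus moved both ways, 2 up-regulated and 1 down-regulated of 12. Collagen chains fell in 3 of 41, COL5A1 (−0.90), COL6A1 (−0.72) and the dim COL4A5 (−0.90), and rose in 1, COL16A1 (0.76). With normexp and loess 0 of the 41 collagen chains were called, and on mean signals 0. The 3 COL4A5 probes read −0.27, −2.45 and 0.01, so its mean rests on 1 probe. Of 63 metalloproteinases, ADAMs and inhibitors 7 were up-regulated and 2 down-regulated, but all 7 that rose were dim, and without replicate 4 they were 2, without replicate 1, 3 or 5 they were 4, with slide as a fixed term 1 and with normexp and loess or on mean signals 0. The bright ADAM15 (−0.62) and ADAMTS1 (−0.61) fell. Of 24 integrins 1 was called (4.17%, under the 6.98% of all genes with a symbol), ITGB2, the beta 2 chain of leukocytes (−0.72). Calls that ended with 1 array less were those of ADAMTS1 without replicate 1 (−0.52), LAMB1 without replicate 4 or 5 (0.52 to 0.58) and MATN4 without replicate 3 (0.58).

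Guidance proteins of the semaphorin group were called in both directions, with 5 of 28 tested down-regulated and 3 up-regulated, while the methods' test called 3 and 1. SEMA3C gave −1.71, −1.59, −1.82, −1.05 and −1.46 (mean −1.53) and SEMA3A −1.40, −1.18, −0.83, −0.54 and −1.13 (mean −1.02), while SEMA3D (−0.85, dim, probes from −1.32 to −0.43), SEMA6B (−0.66) and the receptor PLXNA2 (−0.75) also fell. All 10 values of SEMA3C and SEMA3A lay at or below −0.54. SEMA7A, a membrane-anchored member, rose with 1.86, 1.34, 1.64, 1.31 and 1.20 (mean 1.47), followed by SEMA6A (0.66, probes from 0.20 to 1.10) and SEMA3B (0.63, probes at 0.38 and 0.88). Leaving out 1 array ended the calls of PLXNA2 without any 1 array (−0.82 to −0.67), SEMA3B without replicate 4 or 5 (0.50 to 0.53), SEMA6A without replicate 3 (0.58) and SEMA6B without replicate 1, 2, 4 or 5 (−0.65 to −0.62).

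Growth factor genes were called down-regulated in 8 of 90 tested and up-regulated in 2. With TGFA fell GAS6 (−0.78, −0.59, −1.47, −1.41 and −0.99, mean −1.05), the ligand of the TAM receptors, and one of these receptors, MERTK (−1.74, dim). The neurotrophin BDNF (−0.90, from probes at −1.36 and −0.44), the insulin-like growth factor binding protein IGFBP4 (−0.88), the ephrin receptor EPHB4 (−0.78) and the orphan receptor ROR1 (−0.72) fell as well. EGF, a second ligand of the receptor that TGFA binds, rose by 0.70, 0.64, 1.03, 0.57 and 0.27 (mean 0.64), the opposite direction to TGFA on every array. On mean signals EGF was at −0.02, and the threshold was no longer passed by EGF without replicate 1, 2 or 3 (0.54 to 0.64).

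Of 59 inflammatory cytokines, chemokines and receptors 6 were down-regulated and 4 up-regulated, but 1 and 7 with slide as a fixed term and 0 and 2 with normexp and loess. TNFSF13B, the B-cell survival factor BAFF, rose with 1.31, 1.47, 1.03, 1.46 and 1.29 (1.31 ± 0.18, limma adjusted p = 3.73e-06), and IL11 with 0.97, 0.70, 0.65, 0.56 and 0.39 (mean 0.65). PTGS2, cyclooxygenase 2, rose as well (0.65, probes at 0.39 and 0.91). CXCR4 was the other call up, with no array above background in either channel, so that its ratio has no measured size. IL6R, the interleukin 6 receptor, fell with −0.95, −0.70, −0.67, −0.61 and −0.60 (mean −0.70), beside IL6 (−0.68, but 0.06 with slide as a fixed term), CSF2 (−0.60) and 3 dim genes. Genes induced by interferon were called up-regulated in 3 of 55 and down-regulated in 4, but 2 and 0 with normexp and loess and 0 and 1 on mean signals. MX1 (0.54, 0.56, 0.58, 0.74 and 1.04, mean 0.69) and ISG20 (0.60, 0.62, 0.54, 0.84 and 0.85, mean 0.69) rose on every array, and OAS1, the oligoadenylate synthetase, fell (−0.83, −0.91, −1.50, −1.03 and −1.36, mean −1.13). BST2 (1.21, and 1.11-fold higher on normexp signals with 1 array raised) rose. IFIH1 (−0.64), IFIT3 (−0.64) and XAF1 (−0.80, above background on 2 arrays in each channel) fell with wide spreads. IFIT3 ranged from −1.23 to 0.28. With 1 array left out the calls were lost for BST2 without replicate 4 or 5 (0.98 to 1.02), CSF2 without replicate 2, 3 or 4 (−0.56 to −0.52), IFIH1 without replicate 2, 3, 4 or 5 (−0.64 to −0.52) and IFIT3 without replicate 2, 4 or 5 (−0.59 to −0.49). The threshold was no longer passed by IL11 without replicate 1 (0.57), IL6 without replicate 2, 3, 4 or 5 (−0.75 to −0.57) and PTGS2 without replicate 2, 4 or 5 (0.43 to 0.64).

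Of 60 tested genes of the cell cycle and DNA replication 6 were down-regulated and 0 up-regulated (median −0.23), and 25 of the 85 listed genes were not tested. At an unadjusted limma p under 0.05 it was 26 and 6, and the methods' test called 6 and 0. BUB1 (−0.70, −0.82, −0.56, −0.85 and −0.75, mean −0.74) and BUB1B (−0.56, −1.0, −0.66, −0.70 and −0.68, mean −0.72), kinases of the spindle checkpoint, fell on every array. So did FOXM1, the transcription factor of the G2 and M phase genes (−0.67, −0.63, −0.52, −0.70 and −0.77, mean −0.66), the kinesin KIF23 (−0.66), the cyclin CCNA2 (−0.61) and the centromeric histone CENPA (−0.60). All 4 tested subunits of the MCM helicase were lower on all 5 arrays, with means of −0.28 to −0.43, and none was called. RAD52 (−0.59), an annealing protein of homologous recombination, was the only call among 43 repair genes (2.33%, under the 6.98% of all genes with a symbol). Of 6 tested inhibitors of the INK4 and CIP/KIP families limma called 0 and the methods' test 0, with 3 at an unadjusted p under 0.05, and CDKN1A was at 0.35 (limma adjusted p = 0.112). Calls that ended with 1 array less were those of CCNA2 without replicate 2 (−0.56), CENPA without replicate 4 or 5 (−0.58 to −0.56) and RAD52 without replicate 1, 3 or 5 (−0.58 to −0.57).

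Metabolic genes were described by the same counts. In 48 tested genes of the respiratory chain and ATP synthase, 16 of the pentose phosphate pathway and 44 ribosomal proteins, limma called 0. At an unadjusted p under 0.05 these lists had 5, 3 and 12 higher and 5, 4 and 5 lower genes, and the methods' test called 1 ribosomal gene up-regulated and 0 others. These counts moved with the processing, since 10 of 43 ribosomal genes were called up-regulated on background-subtracted signals, 4 of 44 on mean signals and 2 with slide as a fixed term. Of the respiratory genes 3 were called up-regulated with slide as a fixed term and 1 of 47 on background-subtracted signals. Of 33 glycolytic genes 2 were called, both dim and both down-regulated. FBP1, the gluconeogenic fructose bisphosphatase, was at −2.70, and 1.21-fold lower on normexp signals with 0 arrays raised. The liver pyruvate kinase PKLR was at −0.60, above background on 1 treated array. GAPDH, which the study used to normalize its PCR, gave −0.50, −0.73, −0.41, −0.45 and −0.30 (−0.48 ± 0.16, limma adjusted p = 0.0113), below 0 on all 5 arrays and under the fold change of 1.5. In the tricarboxylic acid cycle and its regulators 1 of 24 was called, PDP1, the phosphatase that activates pyruvate dehydrogenase, with 1.70, 1.47, 1.08, 0.88 and 1.31 (mean 1.29). Of 21 genes of glutamine metabolism 1 was called, the mitochondrial sirtuin SIRT4 (0.41, 0.70, 0.71, 0.74 and 0.51, mean 0.61), which was the 1 call among 15 tested genes reported as repressed by CtBP (6.67%, beside 6.98% of all genes with a symbol). The shares called of the glycolytic, tricarboxylic acid cycle and glutamine lists, 6.06%, 4.17% and 4.76%, also lay under that share. Leaving out 1 array ended the calls of PKLR without replicate 1, 2, 3 or 4 (−0.67 to −0.47) and SIRT4 without replicate 2, 3 or 4 (0.58 to 0.59).

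Genes of serine, one-carbon and methionine metabolism were up-regulated in 4 of 35 tested and down-regulated in 0 (10 and 7 at an unadjusted limma p under 0.05, 2 and 0 by the methods' test). CTH, which makes cysteine from cystathionine, gave 0.76, 0.84, 1.03, 1.31 and 0.97 (0.98 ± 0.21, limma adjusted p = 4.08e-05). ALDH1L2, a mitochondrial folate enzyme, gave 0.61, 1.12, 1.41, 1.86 and 1.68 (mean 1.33), and the folate receptor FOLR1 0.29 to 1.53 (mean 0.75). GLDC, the dim glycine decarboxylase, gave 0.72 to 3.51 (mean 1.92, and 1.13-fold higher on normexp signals with 0 arrays raised). PHGDH, the entry enzyme of serine synthesis, was at 0.25 ± 0.11 (limma adjusted p = 0.154) and SHMT2 at −0.34 ± 0.12 (limma adjusted p = 0.0297), below 0 on all 5 arrays. ATF4, which drives many of these genes under amino acid stress, was at 0.40 ± 0.26 (limma adjusted p = 0.032), with probes at 0.07 and 0.73. Of 29 genes of the ATF4 and unfolded protein response 3 were up-regulated and 0 down-regulated (median 0.26; 10 and 2 at an unadjusted limma p under 0.05, 2 and 0 by the methods' test). DDIT4, an inhibitor of mTORC1, gave 0.79, 1.12, 0.73, 1.42 and 1.46 (mean 1.10), NUPR1 0.43, 0.57, 0.44, 1.00 and 1.02 (mean 0.69), and CHAC1, a glutathione-degrading enzyme, a mean of 0.64. With 1 array left out the calls were lost for CHAC1 without replicate 3, 4 or 5 (0.57 to 0.61) and FOLR1 without replicate 5 (0.55).

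Redox genes were called in both directions, but limma called 0 of them with normexp and loess and 0 on mean signals. Of 48 genes of glutathione and reactive oxygen handling 3 were up-regulated, GSTO2, the NADPH oxidase NOX5 (0.74, 0.89, 1.34, 1.08 and 0.58, mean 0.93) and the dim DUOX1 (0.77, probes at 0.38 and 1.16, above background on 2 control arrays). The 3 down-regulated genes were all gamma-glutamyltransferases, which cleave extracellular glutathione, GGT1 (−0.66, −0.56, −0.76, −0.78 and −0.92, mean −0.73), GGT5 (−0.67) and the dim GGT7 (−0.73, above background on 2 treated arrays). GGT1 has near-identical copies that its probe may not tell apart, and the 4 GGT7 probes ranged from −1.93 to 0.03. In nucleotide synthesis 3 of 40 were down-regulated and 0 up-regulated (median −0.15; 12 and 2 at an unadjusted limma p under 0.05, 1 and 0 by the methods' test), CAD, the first enzyme of pyrimidine synthesis (−0.64), IMPDH1 of guanine nucleotide synthesis (−0.59) and the dim CDA (−0.78, above background on 2 treated arrays). That was 7.5%, beside 6.98% of all genes with a symbol. Limma called 0 of the 40 with normexp and loess, and 1 down-regulated and 0 up-regulated on mean signals. Of 52 genes of lipid and cholesterol synthesis (3.85% called, under the 6.98% of all genes with a symbol) FADS1 (0.70) and INSIG1 (0.68, but −0.01 with slide as a fixed term) rose, and INSIG1 ranged from −0.17 to 1.61 with its 2 highest values on slide 4. The threshold was no longer passed by DUOX1 without replicate 1, 2, 3 or 5 (0.66 to 0.82), GGT5 without replicate 1 (−0.58), IMPDH1 without replicate 1, 2, 4 or 5 (−0.61 to −0.52) and INSIG1 without replicate 2, 3, 4 or 5 (0.44 to 0.79).

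Corepressor partners of CtBP were called in 3 of 34 tested (8.82%, beside 6.98% of all genes with a symbol), and in 1 with normexp and loess. KLF8 and ZNF516 (0.71, above background on 3 arrays in each channel) rose, and ZNF296 fell (−0.64). HDAC1 was at −0.36 ± 0.11 (limma adjusted p = 0.026), below 0 on all 5 arrays, and ZEB1 at −0.07 ± 0.25. Of 246 tested genes that the study listed as CtBP2 targets, 17 were down-regulated and 8 up-regulated (median −0.07, and −0.16 over the bright ones). That was 10.2%, beside 6.98% of all genes with a symbol, and the methods' test called 13 and 6. Down-regulated ones with bright probes included ADM, the vasodilator adrenomedullin (−0.55, −1.21, −1.48, −1.52 and −1.26, mean −1.20), PKP2 and BDNF, and up-regulated ones the epithelial claudin CLDN7 (0.73, 1.01, 0.68, 1.31 and 1.11, mean 0.97), ENPP2 (1.07) and ZNF165 (0.95). Calls that ended with 1 array less were those of ZNF296 without replicate 4 or 5 (−0.57 to −0.55) and ZNF516 without replicate 1, 2, 3 or 4 (0.58 to 0.73).

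Among zinc finger genes named ZNF 32 of 380 tested were down-regulated and 5 up-regulated (median −0.12). Most encode KRAB-type DNA-binding repressors and many stand in clusters on chromosome 19. There 19 of 185 were down-regulated and 1 up-regulated, against 20 and 20 of the 824 other genes tested on that chromosome, and on other chromosomes 13 of 195 were down-regulated and 4 up-regulated. Lower on all 5 arrays were 128 of the 380 and higher on all 5 arrays 51, where 19.8% and 21.2% of all genes with a symbol were. Among bright members ZNF547 gave −1.19, −0.77, −1.44, −0.63 and −1.29 (mean −1.06), ZNF513 −0.75, −0.67, −0.86, −1.15 and −0.99 (mean −0.88) and ZNF772 a mean of −0.93, and ZNF365 rose with 1.23, 0.97, 1.16, 1.54 and 1.60 (mean 1.30) and ZNF580 with a mean of 0.74. With normexp correction and loess normalization 0 ZNF genes were called down-regulated and 2 up-regulated, with a median of −0.05.

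Epithelial and mesenchymal genes showed no single direction. CDH1, E-cadherin, was not well above background in either channel on any array, with ratios of −0.59 to 0.33. Of 55 junction and keratin genes 3 fell, PKP2, plakophilin 2 (−1.31, −1.38, −1.39, −1.09 and −1.44, mean −1.32), the claudin CLDN1 (−1.48, not bright) and KRT7 (−0.87, −1.11, −0.75, −1.01 and −1.02, mean −0.95), and 2 rose, CLDN7 and the dim KRT13, above background on 1 control and 2 treated arrays. Claudins were thus found in both groups. Of 32 mesenchymal transition genes SPARC rose, and TCF4 (−1.53) and TAGLN (−0.68, from probes at −1.06 and −0.31) fell. TCF4 was 1.09-fold lower on normexp signals with 0 arrays raised. Vimentin (VIM) was at 0.30 ± 0.22 (limma adjusted p = 0.0978). Of 19 luminal markers 4 fell, TFF3, TFF1, the ETS factor SPDEF (−0.73, −0.69, −0.94, −1.04 and −1.38, mean −0.96) and AGR2 (−2.11, −0.75, −1.82, −0.15 and −0.74, mean −1.11), and 1 rose, MUC1 (0.93, 1.04, 0.63, 0.50 and 0.65, mean 0.75). The summed signal of the 19 luminal markers was 34000 to 62300 in the treated channel and 42600 to 48300 in the control channel, so the ranges overlapped. In bulk RNA fewer cells of a kind and less RNA per cell cannot be told apart. Leaving out 1 array ended the calls of AGR2 without replicate 1 or 3 (−0.94 to −0.87) and KRT13 without replicate 1, 3, 4 or 5 (0.59 to 0.76). The call of KRT13 also ended with the replicate number as a block (limma adjusted p = 0.0675).

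Of the markers of other cell types, 1 of 20 leukocyte genes was called, CSF1R (1.01). Of 15 endothelial genes 4 were called, ROBO4 (0.65), CDH5 (1.18), NOS3 (−0.62) and KDR (0.66). KDR had probes at 1.26 and 0.06, and was at −0.03 with normexp and loess. CDH5 was 1.06-fold higher on normexp signals with 1 array raised. Of 15 fibroblast genes 0 were called by limma or the methods' test (4 at an unadjusted p under 0.05). Of the 15 endothelial genes the methods' test called 1 up-regulated and 0 down-regulated. CDH5 was at 0.09 with normexp and loess (limma adjusted p = 0.25). The summed signals of the leukocyte list were 4060 to 5260 and 3820 to 5250 in the treated and control channels, of the endothelial list 1470 to 1900 and 1810 to 2470, and of the fibroblast list 838 to 1690 and 835 to 1700. Their part in the results was not tested. With 1 array left out the calls were lost for CDH5 without replicate 1, 2, 3 or 4 (1.05 to 1.11), KDR without replicate 2 or 4 (0.49 to 0.58) and NOS3 without replicate 3, 4 or 5 (−0.59 to −0.55).

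Potassium channels were up-regulated in 7 of 89 and down-regulated in 1 (8.99%, beside 6.98% of all genes with a symbol), but only 3 were up-regulated without replicate 2, 2 with normexp and loess and 0 on mean signals. The bright ones were KCNK5, a two-pore channel (0.66, 0.65, 0.94, 0.78 and 0.72, mean 0.75), and KCNMB4 (0.61). Of 318 solute carriers 9 rose and 9 fell (5.66%, under the 6.98% of all genes with a symbol), with SLC16A14 (1.29) and SLC35G5 (1.11) highest and SLC35F5 (−0.76, probes at −0.38 and −1.13) lowest among bright members. Of 74 histone genes H1-2 rose (0.62), of 55 histone and DNA modifying enzymes KDM7A, a demethylase of repressive histone marks (0.70), and of 22 proteasome subunits PSMD5 fell (−0.68). These shares of 1.35%, 1.82% and 4.55% lay under the 6.98% of all genes with a symbol. Of olfactory receptor genes, which belong to sensory neurons, 3 of 111 were called up-regulated and 1 down-regulated, all dim (3.6%). With 1 array left out 1 to 4 of them were up-regulated. Among 29 hypoxia-inducible genes (6.9% called) ADM fell and so did EPAS1, the HIF-2 alpha subunit (−1.36, −1.68, −1.81, −1.20 and −1.99, mean −1.61, and −0.69 with normexp and loess). EPAS1 is dim, since on no array were both of its probes above background in the treated channel. The threshold was no longer passed by H1-2 without replicate 1 or 3 (0.56 to 0.58) and KCNMB4 without replicate 2 or 4 (0.52 to 0.57).

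**Figure D3:**
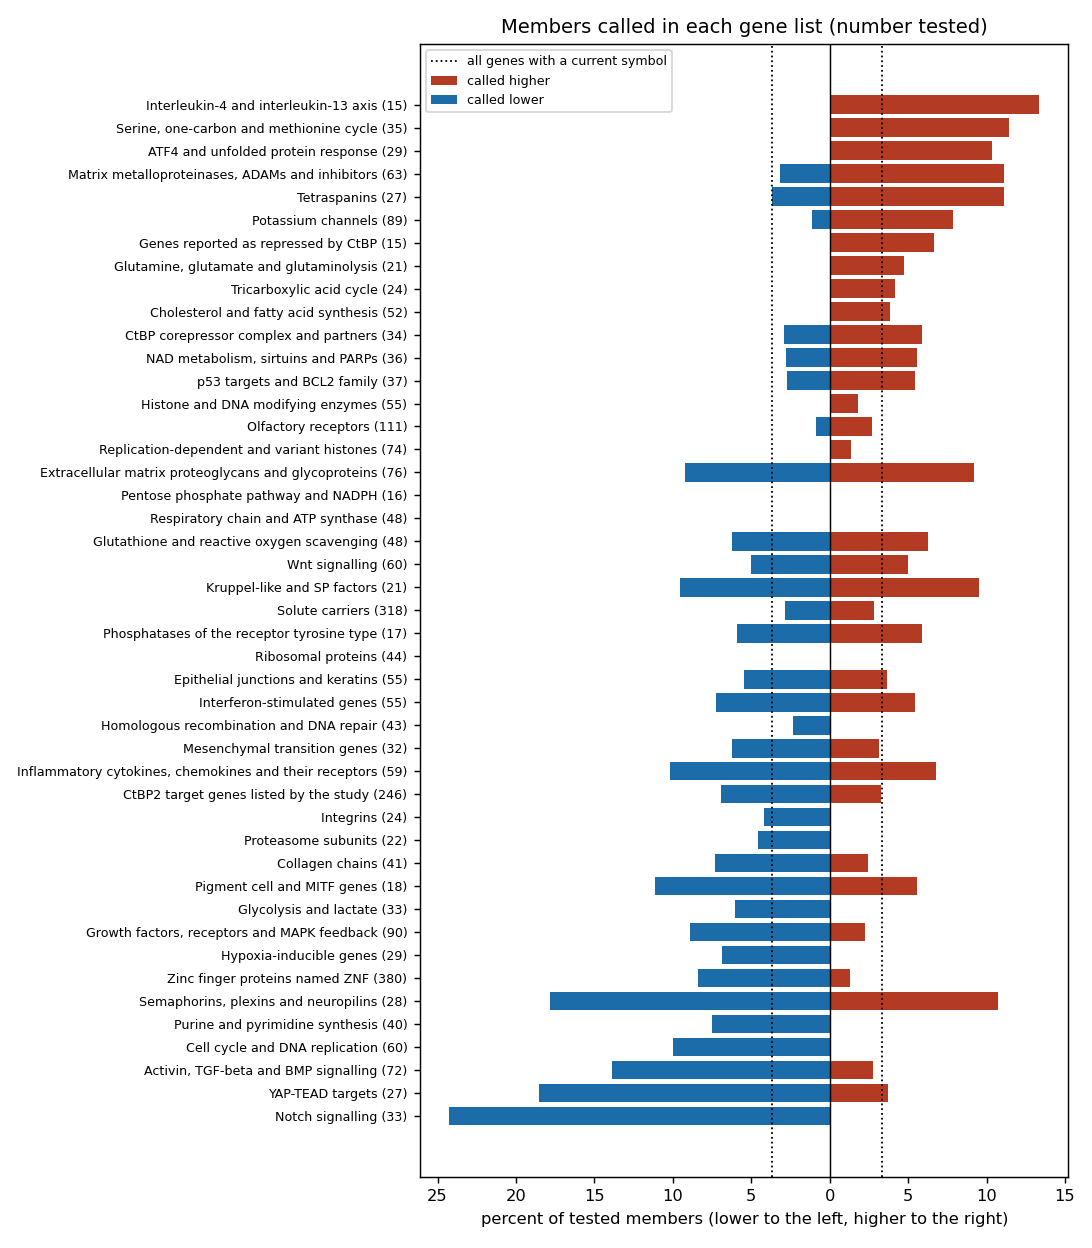
Share of tested members called up-regulated (to the right) and down-regulated (to the left), in percent, for each gene list (rows, number of tested members in brackets); dotted lines mark the shares over all tested genes with a current symbol, 3.31% and 3.67%. Notch signalling had the largest share of down-regulated members, 8 of 33.

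The counts of these lists depended on the processing. With normexp correction and loess normalization 268 of the 27574 genes were called in place of 1796. The down-regulated members were then 4 in the TGF-beta list, 4 in the cell cycle list, 3 among growth factors, 2 among semaphorins, 1 among YAP and TEAD targets and 0 in the Notch list, and 1 gene of serine metabolism was up-regulated. The luminal list had 3 down-regulated members and the matrix list had 3 up-regulated and 5 down-regulated. On background-subtracted signals centred on the median, where 1882 genes were called, the down-regulated members were 9 in the TGF-beta list, 8 in the Notch list, 6 in the cell cycle list and 5 among YAP and TEAD targets. With slide as a fixed term the Notch list had 2 down-regulated members, the TGF-beta list 6 and the cell cycle list 9. Some counts also rested on single arrays. Without replicate 4 the down-regulated members were 5 in the TGF-beta list, 2 among YAP and TEAD targets, 2 among inflammatory genes and 5 among solute carriers, and 4 matrix genes and 3 ZNF genes were up-regulated. Without replicate 1 the Notch list had 5 down-regulated members. Semaphorins had 3 without replicate 1, 2, 4 or 5, YAP and TEAD targets 3 without replicate 2, inflammatory genes 3 without replicate 3 or 5, and interferon-induced genes 2 without replicate 2, 4 or 5.

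Ratios were also summarised along the chromosomes. Bright genes were sorted into windows of 20 Mb by their hg17 positions, and of 155 windows with at least 20 bright genes 11 had a median log2 ratio of 0.2 or more from 0, 8 below and 3 above, each with 1 sign on all 5 arrays. Chromosome 2 held 6 of the 8 low windows. The 3 high ones were the first of chromosome 17, the stretch from 40 to 60 Mb of chromosome 9, which was furthest from 0 of all windows (median 0.34 over 23 bright genes), and that from 80 to 100 Mb of chromosome 13 (0.21 over 42 bright genes). The 814 bright genes between 0 and 180 Mb of chromosome 2 had a median of −0.26, 75.3% of them lay below 0, and the medians of single arrays ran from −0.22 to −0.28. Of the 750 that were tested 117 were down-regulated (15.6%) and 9 up-regulated, beside 2.99% and 3.4% of all bright genes. From 180 Mb to the end of the same chromosome the median of 323 bright genes was 0.03, with 9 down-regulated and 14 up-regulated. This split lay inside chromosome 2, and the stretches named here were chosen after the values were seen, so they carry no test.

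Other stretches were shifted too. Between 100 and 140 Mb of chromosome 9 the median of 332 bright genes was −0.26 and 34 of 296 tested were down-regulated (11.5%), while the 369 bright genes of the first 100 Mb had a median of 0.07, although that of the window from 40 to 60 Mb was 0.34. On the first 20 Mb of chromosome 12 the median was −0.24, with 16 of 152 down-regulated (10.5%), and on the first 20 Mb of chromosome 17 it was 0.20, with 22 of 218 up-regulated (10.1%). Outside the 4 stretches the median was 0.02, with 1.99% down-regulated and 3.52% up-regulated. On the HIPP and P4 arrays the chromosome 2 stretch had medians of −0.07 and −0.02, the chromosome 9 stretch −0.02 and −0.06, the chromosome 12 stretch −0.01 and −0.04, and the chromosome 17 stretch 0.07 and 0.06. HIPP had 21 windows and P4 had 3 past the same limit. The difference between each stretch and the rest had 1 sign under normexp correction, background-subtracted signals, mean signals, slide as a fixed term and each slide alone, at −0.21 to −0.34 for chromosome 2, −0.22 to −0.34 for chromosome 9, −0.17 to −0.30 for chromosome 12 and 0.14 to 0.22 for chromosome 17. The cause was not tested.

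**Figure D4:**
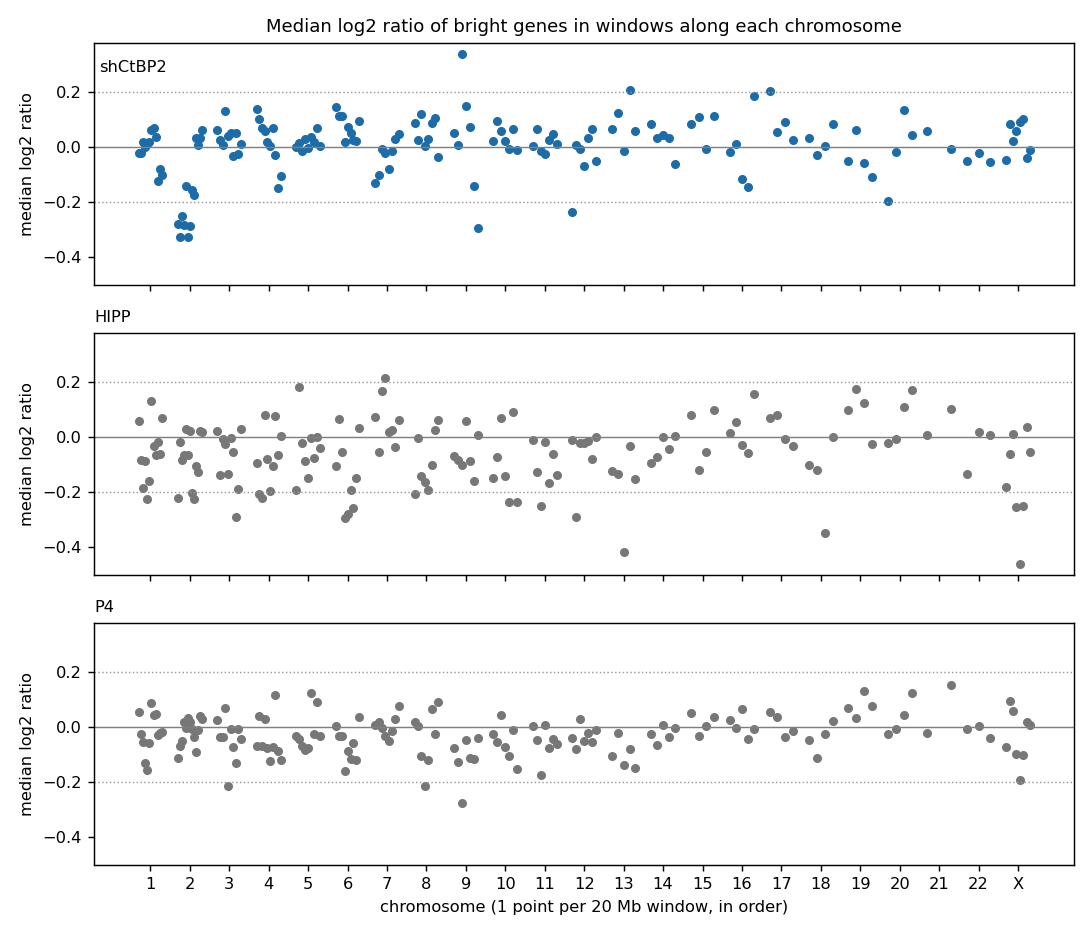
Median log2 ratio of bright genes (y axis) in windows of 20 Mb, 1 point per window in order along each chromosome (x axis), for shCtBP2 (top), HIPP (middle) and P4 (bottom); dotted lines mark 0.2 to either side of 0. For shCtBP2, 6 of the 13 points of chromosome 2 lie between −0.25 and −0.33 and the last point of chromosome 9 lies at −0.30, while the point furthest from 0 is that of 40 to 60 Mb of chromosome 9, at 0.34.

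Several genes described above lie in these stretches, and the shift of their neighbours stands beside their own values. The window medians were −0.29 for INHBB, −0.28 for TGFA, −0.33 for LTBP1, BUB1, CENPA, CAD, MERTK, SLC35F5 and ZNF513, −0.28 for ID2, −0.25 for EFEMP1 and EPAS1, −0.29 for CXCR4, −0.17 for NOSTRIN and IFIH1 and −0.15 for ACVR2A on chromosome 2. They were −0.30 for DIPK1B, NOTCH1, COL5A1 and PSMD5 and −0.14 for LPAR1 on chromosome 9, −0.24 for FOXM1, TEAD4, RAD52 and GAPDH on chromosome 12, and 0.20 for CLDN7 and XAF1 on chromosome 17. Relative to its window, NOTCH1 was at −0.39, BUB1 at −0.41, TEAD4 at −0.39 and GAPDH at −0.24. INHBB was still at −3.72 and DIPK1B at −2.95. With the genes of the 4 stretches left out, 853 up-regulated and 649 down-regulated genes remained of 24999 tested. The TGF-beta list then had 6 down-regulated of 65, Notch 7 of 30, YAP and TEAD targets 4 of 25, the cell cycle list 3 of 53 and the ZNF genes 29 of 367.

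The inhibitor arrays were set beside the 24 bright genes. The genes were chosen for their shCtBP2 ratios, so these values describe them and carry no test. For genes of the lists the differences were tested in the same limma fit, in which the hairpin ratio was higher than the HIPP ratio in 12.8% of all tested genes at an adjusted p of 0.05 and lower in 11.6%, and higher than the P4 ratio in 5.34% and lower in 5.68%. The shCtBP2 arrays lay on slides 3 and 4, the HIPP arrays on slides 2 and 3 and the P4 arrays on slides 1 and 2. No slide held both shCtBP2 and P4 arrays, and only slide 3 held both shCtBP2 and HIPP arrays. Slide and treatment therefore cannot be told apart in the difference from P4, and only in part in that from HIPP. CDK20, at 2.25 with the hairpin, was at 0.12 ± 0.23 (SD, n = 5) under HIPP and at 0.16 ± 0.20 (SD, n = 5) under P4. TFF3, at −3.29, was at 0.84 ± 0.26 and 0.55 ± 0.41, and FLNC, at −2.18, at 0.25 ± 0.30 and −0.26 ± 0.32. These genes had moved with the hairpin and stood near or above the control with the compounds. SYT13 stood at 1.98 with the hairpin, −2.78 ± 0.64 with HIPP and −0.92 ± 0.33 with P4, and SPOCK1, KCTD4, ARMCX2 and LINGO2 were also above the control with the hairpin and below it with both compounds. LAMA4 had −1.89, −2.18 ± 0.33 and −1.18 ± 0.13, and LPAR1 −1.78, −2.48 ± 0.86 and −1.78 ± 0.59, so that both were below the control in all 3 treatments. SLFN5 was the bright up-regulated gene with the higher ratios under the inhibitors, 2.86 ± 0.49 with HIPP and 2.57 ± 0.48 with P4 against 1.42 ± 0.41.

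**Figure D5:**
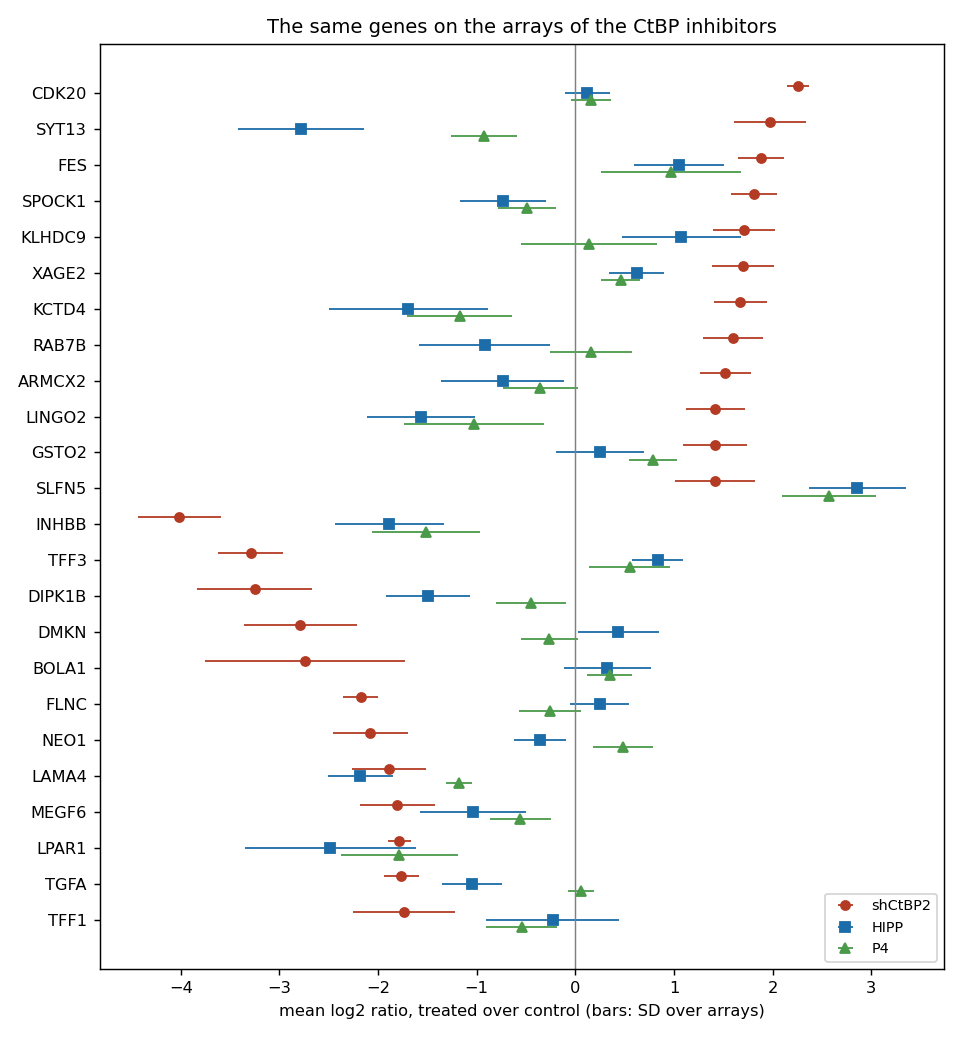
Mean log2 ratio of treated over control (x axis) for the 24 bright genes (rows) with shCtBP2, HIPP and P4, with bars for the SD over 5 arrays. CDK20 and TFF3 stand apart from the inhibitor values, and LPAR1 lies in the same range in all 3.

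Among genes described above for their roles, CTBP2 was at −0.41 with the hairpin, 0.57 ± 0.36 with HIPP and 0.17 ± 0.35 with P4 (limma adjusted p of the difference = 0.00163 and 0.0701). With the replicate number as a block the difference from P4 had a limma adjusted p of 0.0426. NUPR1 was at 0.69 with the hairpin and at 2.90 ± 0.15 and 2.85 ± 0.07 with the compounds, CTH at 0.98, 2.00 ± 0.18 and 2.81 ± 0.23, and ATF4 at 0.40, 1.60 ± 0.17 and 1.51 ± 0.25, with limma adjusted p-values of the differences from 2.48e-07 to 0.000519. CCN2 was at −0.45, −2.80 ± 0.47 and −1.71 ± 0.50, with adjusted p-values of the difference of 2.18e-05 and 0.00839. The dim EPAS1 went the other way, at −1.61 with the hairpin, 0.80 ± 0.40 with HIPP and 0.44 ± 0.20 with P4.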

How the data were processed

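Two-colour Agilent whole-genome arrays (60-mer probes annotated on hg17) were scanned and processed by the authors with Feature Extraction 9.5, per the file headers. The deposited values were, for each spot, processed intensity in both channels, background-subtracted and dye-normalized within the array, mean and background intensity, and a log10 ratio of Cy5 over Cy3. The series' value table, also deposited by the authors as a log10 ratio, differed from that column by at most 0.00499. Depth has no meaning for arrays, and the number of arrays limits the precision.

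The log2 ratio of processed signals was averaged over spots of a probe and probes of a gene, outlier spots left out. Genes measured on at least 3 of 5 arrays were kept, the 11% with the lowest interquartile range were removed, and limma 3.58.1 (R 4.3.3) was fitted to all 15 arrays, each group mean tested against 0. Tables were made with Python 3.11.15 and pandas 2.3.3. The limma fit was tested on simulated data. Symbols came from RefSeq, by accession for 16534 genes, by name for 517 and by older name for 452 of 30982. Alternatives were normexp correction (offset 50) with loess, other signals and centring, slide, probe and replicate settings (the replicate block for the differences between treatments was chosen after seeing the data), and the methods' Student's test with its p-values adjusted over all genes or, as in the methods, over those past the fold change. Differences between treatments are given from the fit without pairing unless the replicate block is named. Deviations of shCtBP2 arrays from their group mean correlated with those of same-numbered P4 arrays at r of 0.138 to 0.353, over 0.1 in all 5 pairs. With same-numbered HIPP arrays r was 0.069 to 0.302, over 0.1 in 4 of 5. The best match of an shCtBP2 array had its own number in 3 of 5 cases with P4 and 2 of 5 with HIPP. Of 20 pairs of unlike number 7 (P4) and 6 (HIPP) were over 0.1.

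Named genes were CTBP2 and CTBP1, the 12 highest and 12 lowest bright genes, the 4 highest and 4 lowest others, and up to 4 called members per list and direction with up to 2 uncalled ones. Further list members, marker genes, the members of small counts and the chromosome stretches were named after their values were seen. Members and lists were chosen with earlier results of these data known, and the list of CtBP2 targets is the study's own.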

Additional observations from a re-analysis of the deposited data

Results flagged for a closer look

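In 6 of 179 genes looked at, 1 of the 5 arrays lay far from the other 4 by Dixon's test (critical value 0.71), which chance does in about 1 of 20 groups. RAB7B was 1.06 on replicate 1 and 1.68 to 1.79 on the others. CDH5 was −0.38 on replicate 5 and 1.44 to 1.70 on the others, and its control signal was not well above background. TAGLN was −0.25 on replicate 5 and −0.83 to −0.75 on the others. SEMA6B was −0.25 on replicate 3 and −0.80 to −0.71 on the others. IL6R was −0.95 on replicate 1 and −0.70 to −0.60 on the others. PSMD5 was −0.82 on replicate 2 and −0.67 to −0.62 on the others.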

How the results depend on the processing

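The 1796 calls (918 up, 878 down) became 268 (133 and 135) with normexp correction and loess, 273 (86 and 187) on mean signals, 1104 (602 and 502) on probes bright in both channels, 966 (544 and 422) by the methods' Student's test adjusted over all genes, 1500 (850 and 650) by the same test adjusted, in the methods' order, over the genes past the fold change, 3534 (1720 and 1814) with no fold-change threshold and 592 (312 and 280) at a fold change of 2. From the 2 arrays of slide 3 alone limma called 939 (397 and 542), and from the 3 of slide 4 alone 1159, of which 564 were up. Leaving out 1 array gave 1257 to 1603 calls, 620 to 807 up and 637 to 796 down. The median of all genes was 0.04, −0.22 on mean signals and −0.07 with slide as a fixed term. CTBP2 stayed uncalled in all alternatives, at −0.69 to −0.35. Of 161 named genes called, 59 kept the call with normexp and loess, 55 on mean signals and 87 with slide as a fixed term, while 100, 95 and 72 lost it and 2, 11 and 2 changed sign, and the cause was not tested. With only the 5 shCtBP2 arrays in the fit 148 kept the call and 13 lost it.

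On mean signals, which carry no dye normalization and have a median of −0.22 over all genes, signs turned for BST2 (−0.13), CDH5 (−0.17), CXCR4 (−0.14), DAND5 (−0.01), DUOX1 (−0.19), EGF (−0.02), FSTL5 (−0.24), KDR (−0.23), KRT13 (−0.23), the uncalled NOTCH3 (−0.31), SEMA6A (−0.07) and ZNF516 (−0.06), and 8 of these 12 lay above that median. They turned with normexp and loess for FSTL5 (−0.01), KDR (−0.03) and the uncalled ZEB1 (0.03), with slide as a fixed term for IL6 (0.06) and INSIG1 (−0.01), and from slide 4 alone for the uncalled CDH1 (0.17), CCN1 (−0.00) and NOTCH3 (−0.30). With 1 array left out CDH1 ranged from −0.13 to 0.11 and ZEB1 from −0.13 to 0.02.

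With the replicate number as a block 2198 genes were called (1100 up, 1098 down). This block ended the calls of FSTL5 (limma adjusted p = 0.0562) and KRT13 (0.0675) among the named genes. Between shCtBP2 and P4 4122 genes differed under the block in place of 3039, of which 2958 were shared, and between shCtBP2 and HIPP 8080 in place of 6732, of which 6608 were shared. Signal near background limited ratios among the 13649 genes that were not bright, to an extent that differed between genes and was not tested.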
